A study of Mus musculus with 2 samples.

Results

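The 37 genes described here are those of the vacuolar ATPase, the lysosomal cathepsins and the main lysosomal membrane proteins, out of 32285 genes listed in each library. They comprise every symbol that begins with Atp6v or Atp6ap, except Atp6v0d2, which gives 25 genes, and 12 genes taken by name, namely 10 cathepsins (Ctsa, Ctsb, Ctsc, Ctsd, Ctsf, Ctsh, Ctsl, Ctso, Ctss and Ctsz), Lamp1 and Lamp2. The rule uses symbols and no measured value. Of the 37 genes, all found in both libraries' gene lists, 29 had at least 100 unique molecular identifiers (UMIs) over both libraries, 8 had fewer than 100 and 4 of these had fewer than 10.

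The vacuolar ATPase is a rotary proton pump that acidifies lysosomes and other compartments. Its cytosolic V1 sector hydrolyses ATP, its membrane V0 sector carries the protons, and accessory proteins assist assembly. The acid lumen activates cathepsins, proteases that degrade proteins taken up by phagocytosis and, in antigen-presenting cells, trim the invariant chain and antigens. Lamp1 and Lamp2 are heavily glycosylated proteins that line the lysosomal membrane. In bone, osteoclasts place the same pump on their surface to dissolve mineral.

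Single-cell RNA was counted in 2 mouse libraries, 1 from femoral marrow and implant-adherent cells of osteoporotic fracture mice given a Mg-TAGelMA intramedullary nail and 1 from the same sources in mice given a Mg nail. GelMA is the hydrogel gelatin methacryloyl, and TA is left unexplained in the labels. They give no strain, age, sex or number of mice, nor the proportion of marrow to adherent cells, so pooling of animals and any difference between animals cannot be told apart from the nail. With 1 library per group there is no replicate check and no test between the nails, and each interval is an exact 95% interval of counting error in these libraries.

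The Mg-TAGelMA library held 79890998 UMIs in 7591 barcodes and the Mg library 58261391 UMIs in 9466 barcodes, and 7226 Mg-TAGelMA and 8122 Mg cells were kept. The barcode lists shared 21 barcodes. Cells were placed in classes by 20 marker lists, which gave a class to 6471 cells (89.6%) of the Mg-TAGelMA library and 7186 cells (88.5%) of the Mg library. A name written "-like" rests on these transcripts only. In the 13 classes with at least 20 cells per library every marker of the class's own list was detected, except 1 of 6 conventional dendritic markers in the Mg-TAGelMA library. No cell met the osteoclast or endothelial gate in either library. Neutrophil RNA also appeared in other cells: the 5 immature neutrophil markers summed to 3346 counts per 1000000 UMIs (CPM) in Mg-TAGelMA B-like cells and 1052 CPM in Mg B-like cells, against 100290 (Mg-TAGelMA) and 99647 (Mg) CPM in immature neutrophil-like cells. It was not subtracted, and its part in the low levels below was not tested.

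Levels are given as CPM, the share of a class's summed UMIs that came from a gene. Because the assay counts 3' ends, a CPM is not scaled by transcript length, and levels are compared for 1 gene between classes or libraries. A lower CPM in a class can also stand for other genes taking a larger share of its RNA. The 10 cathepsins together made up 10299.7 CPM of the Mg-TAGelMA and 10353 CPM of the Mg macrophage-like cells. Their sum was 3356 (Mg-TAGelMA) and 3834 (Mg) CPM in plasmacytoid dendritic-like cells, 2876 (Mg-TAGelMA) and 3344 (Mg) CPM in monocyte-like cells and 2337 (Mg-TAGelMA) and 2662 (Mg) CPM in conventional dendritic-like cells. No other class among the 13 passed 1094 CPM in either library. The summed V-ATPase genes spanned a narrower range, 1405 CPM in stem and progenitor-like to 4224 CPM in macrophage-like cells of the Mg-TAGelMA library, and 1163 CPM in T-like to 2804 CPM in macrophage-like cells of the Mg library. The macrophage-like class held 29 Mg-TAGelMA and 24 Mg cells with medians of 1041 (Mg-TAGelMA) and 1128.5 (Mg) UMIs, below the 6744 (Mg-TAGelMA) and 3803.5 (Mg) UMIs of all kept cells. Its deepest single cell gave 18.1% (Mg-TAGelMA) and 26.8% (Mg) of its UMIs, so its values rest on few cells. Its 6 markers summed to 15006 (Mg-TAGelMA) and 19515 (Mg) CPM and 5 of them were among its 10 leading genes in both libraries. The 5 immature neutrophil markers summed to 4357 (Mg-TAGelMA) and 1479 (Mg) CPM in it. The 4 endothelial markers were at 0 in the Mg-TAGelMA macrophage-like cells and summed to 615 CPM in the Mg ones, and the part of either list in the values was not tested.

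**Figure D1:**
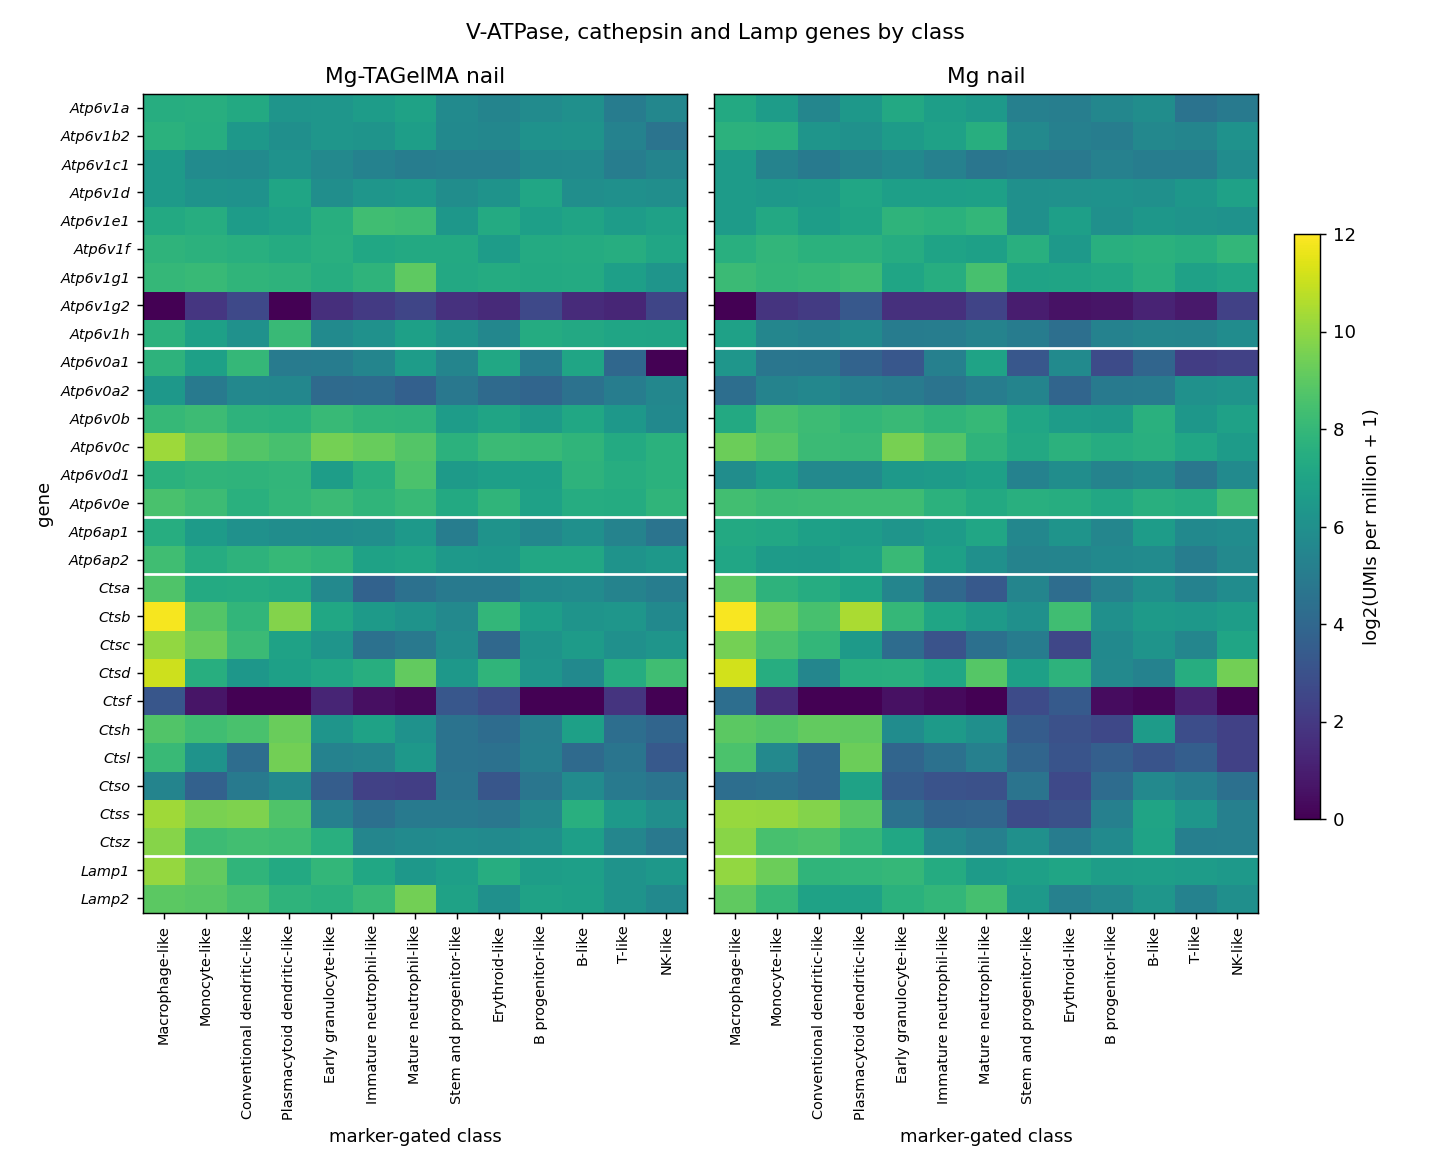
Levels of the 29 genes with at least 100 UMIs (rows, in the order V1 sector, V0 sector, accessory, cathepsins, Lamp, set apart by white lines) in 13 marker-gated classes (columns) of the Mg-TAGelMA library, left, and the Mg library, right. Colour is log2 of CPM plus 1. The cathepsin rows are brightest in the macrophage-like, monocyte-like and dendritic-like columns, and the V-ATPase rows are more even.

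Of the 29 genes, 18 were highest in monocyte-like, macrophage-like or conventional dendritic-like cells in the Mg-TAGelMA and 17 in the Mg library. Among all 13464 genes with at least 100 UMIs the shares highest in these 3 classes were 21.8% (Mg-TAGelMA) and 23.4% (Mg). The macrophage-like cells alone held 15 of the 29 highest values in each library. Without them the counts were 13 with the Mg-TAGelMA and 9 with the Mg nail. Shares of all genes for the macrophage-like class alone, or without it, are not given here, so these counts have no background. By group, 6 of 10 cathepsins in the Mg-TAGelMA library and 8 of 10 in the Mg library were highest in these classes, against 11 (Mg-TAGelMA) and 7 (Mg) of 17 V-ATPase genes. The Mg counts include Ctsf, whose 19.2 CPM in macrophage-like cells was a single UMI. The order of the 13 classes had a Spearman correlation between the libraries of 0.97 for Ctss and 0.98 for Atp6v0c, against a median of 0.59 over the 13464 genes. It was 0.29 for Atp6v1g2 and 0.32 for Atp6v1f, the lowest of the 29. These correlations describe 13 classes that share library and free RNA.

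In the V1 sector, Atp6v1a encodes the catalytic A subunit and Atp6v1b2 a form of the regulatory B subunit. Atp6v1a had 184 CPM in Mg-TAGelMA monocyte-like cells and 99.3 CPM in Mg monocyte-like cells, against 64.7 (Mg-TAGelMA) and 58.6 (Mg) CPM in B-like cells. Atp6v1b2 had 176 (Mg-TAGelMA) and 193 (Mg) CPM in monocyte-like cells, against 70.3 (Mg-TAGelMA) and 47 (Mg) CPM in B-like cells. Both genes were thus higher in monocyte-like than in B-like cells in each library. The stalk subunit gene with the most UMIs, Atp6v1g1, had 517 CPM in Mg-TAGelMA and 358 CPM in Mg mature neutrophil-like cells, its highest class in both libraries. Monocyte-like cells had 267 (Mg-TAGelMA) and 246 (Mg) CPM of it and T-like cells 109 (Mg-TAGelMA) and 115 (Mg) CPM. The Mg interval in mature neutrophil-like cells, 319 to 399 CPM, overlapped that of the next class, plasmacytoid dendritic-like cells at 229.6 to 376 CPM. Atp6v1e1, the E subunit of the stalks, was also high in neutrophil-like cells, with 324 (Mg-TAGelMA) and 203 (Mg) CPM in the immature and 299 (Mg-TAGelMA) and 243 (Mg) CPM in the mature class. Atp6v1f, the F subunit, ran from 96.8 CPM in erythroid-like to 224 CPM in macrophage-like cells of the Mg-TAGelMA library and from 87.4 CPM in erythroid-like to 248 CPM in NK-like cells of the Mg library. Atp6v1c1, Atp6v1d and Atp6v1h, for the C, D and H subunits, stayed between 20.1 and 283 CPM over the 13 classes of both libraries.

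Atp6v0c, which encodes the c subunit of the proton-carrying ring, had the most UMIs of all 37 genes, 36164 in the Mg-TAGelMA and 15160 in the Mg library. It had 1195 CPM in Mg-TAGelMA and 634 CPM in Mg macrophage-like cells, with intervals of 1008 to 1407 CPM (Mg-TAGelMA) and 436 to 890.2 CPM (Mg). Early granulocyte-like cells had 719.8 (Mg-TAGelMA) and 751 (Mg) CPM, and T-like cells 161 (Mg-TAGelMA) and 136 (Mg) CPM. In the Mg library the macrophage-like and early granulocyte-like intervals overlapped, and in the Mg-TAGelMA library they did not. Its ring partner Atp6v0b was highest in monocyte-like cells, at 297 CPM in the Mg-TAGelMA and 360.2 CPM in the Mg library, and Atp6v0e, a small V0 subunit, ran from 115 to 373 CPM with Mg-TAGelMA and from 145 to 327 CPM with Mg. The a subunits anchor the pump to particular membranes. Atp6v0a1 had 254 CPM in Mg-TAGelMA conventional dendritic-like cells but 24.4 CPM in the Mg ones, where its highest class was mature neutrophil-like cells at 124 CPM. Atp6v0a2 stayed at or under 83 CPM in every class of both libraries. The third a subunit expressed in marrow is encoded by Tcirg1, which carries another symbol and is not among the 37 genes.

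Relative to Atp6v0a2, Tcirg1 UMIs were 2.89 times as many in Mg-TAGelMA and 3.37 times as many in Mg early granulocyte-like cells, 1.83 (Mg-TAGelMA) and 1.72 (Mg) times in monocyte-like cells and 0.318 (Mg-TAGelMA) and 0.225 (Mg) times in T-like cells. These are ratios of UMIs without length scaling, so their change between classes can be read and their absolute size cannot. The T-like intervals, 0.185 to 0.527 in the Mg-TAGelMA and 0.154 to 0.321 in the Mg library, lay below the early granulocyte-like and monocyte-like ones. Other classes did not divide into myeloid and lymphoid by this ratio. Conventional dendritic-like cells had 0.444 (Mg-TAGelMA) and 0.607 (Mg), and B progenitor-like cells 4.75 (Mg-TAGelMA) and 1.10 (Mg). The ratio of Atp6v0a1 to Atp6v0a2 did not keep its size between the libraries: it was 6.10 in Mg-TAGelMA and 0.457 in Mg B-like cells.

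Of the accessory genes, Atp6ap1, an assembly subunit, had 174 CPM in Mg-TAGelMA and 154 CPM in Mg macrophage-like cells, its highest class in both. Atp6ap2, the (pro)renin receptor, had 231 (Mg-TAGelMA) and 281 (Mg) CPM in early granulocyte-like cells. The 8 genes with fewer than 100 UMIs were close to absent from the counts. Over both libraries Atp6v1e2, a testis form, had 0 UMIs, Atp6v1b1, the kidney form of the B subunit, had 3, Atp6v0e2 had 4 and Atp6v1g3 had 5. Atp6v1fnb, a gene beside Atp6v1f that entered by its symbol alone, and Atp6ap1l had 10 each. Atp6v1c2 had 12 and Atp6v0a4, a renal a subunit, had 32. Atp6v1g2, a neuronal G subunit, reached 285 UMIs and stayed at or under 8.84 CPM in each class.

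Among the cathepsins, Ctss, which trims the invariant chain in antigen-presenting cells, ordered the classes in nearly the same way in both libraries. It had 779 CPM in Mg-TAGelMA and 1108 CPM in Mg monocyte-like cells, 1262 (Mg-TAGelMA) and 1133 (Mg) CPM in macrophage-like cells, 811 (Mg-TAGelMA) and 862 (Mg) CPM in conventional and 419.6 (Mg-TAGelMA) and 482 (Mg) CPM in plasmacytoid dendritic-like cells. B-like cells had 187 (Mg-TAGelMA) and 129 (Mg) CPM and mature neutrophil-like cells 28.5 (Mg-TAGelMA) and 14.8 (Mg) CPM. The macrophage-like and monocyte-like intervals overlapped in the Mg library, 863 to 1462 and 1076 to 1142 CPM, and in the Mg-TAGelMA library the macrophage-like level was higher. With each cell thinned to 1000 UMIs, Ctss was seen in 53% of Mg-TAGelMA and 62.4% of Mg monocyte-like cells. The share was 19.7% (Mg-TAGelMA) and 15% (Mg) in B-like cells and 2.76% (Mg-TAGelMA) and 0.929% (Mg) in mature neutrophil-like cells. In erythroid-like cells, taken as a class that should lack it, the share was 0 of 93 Mg-TAGelMA cells and 1.03% of Mg cells at this thinned depth. The 0 of 93 has an exact upper bound of 3.89%, which limits cells with a UMI at 1000 UMIs per cell and not cells that hold the transcript. Without thinning the monocyte-like shares were 98.1% (Mg-TAGelMA) and 95% (Mg), and the erythroid-like ones 33.3% (Mg-TAGelMA) and 6.43% (Mg). The median depths were 12502 (Mg-TAGelMA) and 7697 (Mg) UMIs in monocyte-like and 16858 (Mg-TAGelMA) and 4644 (Mg) UMIs in erythroid-like cells. Cells with fewer than 1000 UMIs were left out, 5 Mg-TAGelMA and 12 Mg cells among the monocyte-like.

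Ctsb and Ctsd, the abundant cysteine and aspartic proteases of lysosomes, were highest in macrophage-like cells. Ctsb had 3709.9 CPM there in the Mg-TAGelMA and 3803 CPM in the Mg library, followed by plasmacytoid dendritic-like cells with 883 (Mg-TAGelMA) and 1410.5 (Mg) CPM and monocyte-like cells with 435 (Mg-TAGelMA) and 586 (Mg) CPM. Erythroid-like cells also held 249 (Mg-TAGelMA) and 320.4 (Mg) CPM, against 72 (Mg-TAGelMA) and 91 (Mg) CPM in B-like cells. Ctsd had 2199 (Mg-TAGelMA) and 2324 (Mg) CPM in macrophage-like cells. It then differed from Ctsb: mature neutrophil-like cells had 548 (Mg-TAGelMA) and 449.7 (Mg) CPM, NK-like cells 316 (Mg-TAGelMA) and 704 (Mg) CPM and monocyte-like cells 186 (Mg-TAGelMA) and 179.8 (Mg) CPM. The ratio of Ctsd to Ctsb UMIs was 6.18 in Mg-TAGelMA and 6.92 in Mg NK-like cells, against 0.427 (Mg-TAGelMA) and 0.307 (Mg) in monocyte-like and 0.127 (Mg-TAGelMA) and 0.129 (Mg) in plasmacytoid dendritic-like cells. The NK-like intervals were 3.25 to 13 from 23 Mg-TAGelMA cells and 4.53 to 11 from 48 Mg cells. Ctsb had 11 (Mg-TAGelMA) and 25 (Mg) UMIs in these cells. The deepest single cell gave 25.2% (Mg-TAGelMA) and 7.93% (Mg) of the NK-like UMIs, which a counting interval does not cover.

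Ctsc, or dipeptidyl peptidase 1, which activates granule serine proteases, had 1054 CPM in Mg-TAGelMA and 729.9 CPM in Mg macrophage-like cells and 608 (Mg-TAGelMA) and 380.0 (Mg) CPM in monocyte-like cells. Ctsz, a carboxypeptidase, had 896 (Mg-TAGelMA) and 922 (Mg) CPM in macrophage-like and 300.1 (Mg-TAGelMA) and 363 (Mg) CPM in monocyte-like cells. Ctsa, the protective protein of beta-galactosidase and neuraminidase, had 415 (Mg-TAGelMA) and 519 (Mg) CPM in macrophage-like and 160.0 (Mg-TAGelMA) and 212 (Mg) CPM in monocyte-like cells. All 3 genes were highest in the macrophage-like class of each library and their intervals there did not overlap those of the next class. Ctsh, an aminopeptidase, was instead about as high in dendritic-like cells, with 614 (Mg-TAGelMA) and 544 (Mg) CPM in the plasmacytoid and 380.4 (Mg-TAGelMA) and 546 (Mg) CPM in the conventional class, against 432 (Mg-TAGelMA) and 499 (Mg) CPM in macrophage-like and 19.2 (Mg-TAGelMA) and 6.24 (Mg) CPM in T-like cells. Ctsl was highest in plasmacytoid dendritic-like cells, described further on, and had 282 (Mg-TAGelMA) and 384 (Mg) CPM in macrophage-like and 71.7 (Mg-TAGelMA) and 48.9 (Mg) CPM in monocyte-like cells. Ctso had a B-like value among its 2 highest in each library, 54.9 (Mg-TAGelMA) and 49.8 (Mg) CPM, against 12.3 (Mg-TAGelMA) and 21.3 (Mg) CPM in monocyte-like cells. Ctsf had 82 UMIs in the Mg-TAGelMA and 125 in the Mg library, and its highest level, 19.2 CPM in Mg macrophage-like cells, was 1 UMI. Erythroid-like cells came next in the Mg library, at 9.44 CPM.

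Of the Lamp genes, Lamp1 was highest in macrophage-like cells, 1096 CPM in the Mg-TAGelMA and 1076 CPM in the Mg library, then in monocyte-like cells, 554 (Mg-TAGelMA) and 633 (Mg) CPM. B-like cells had 109 (Mg-TAGelMA) and 106 (Mg) CPM and mature neutrophil-like cells 83.1 (Mg-TAGelMA) and 95.4 (Mg) CPM. Lamp2, which also takes part in chaperone-mediated autophagy through one splice form, followed another order. It had 688 CPM in Mg-TAGelMA and 346 CPM in Mg mature neutrophil-like cells, 498 (Mg-TAGelMA) and 538 (Mg) CPM in macrophage-like and 469.7 (Mg-TAGelMA) and 258 (Mg) CPM in monocyte-like cells. The mature neutrophil-like and macrophage-like intervals were 672 to 704 and 380.0 to 641 CPM in the Mg-TAGelMA library, where they did not overlap, and 309 to 387 and 357 to 777 CPM in the Mg library, where they did.

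**Figure D2:**
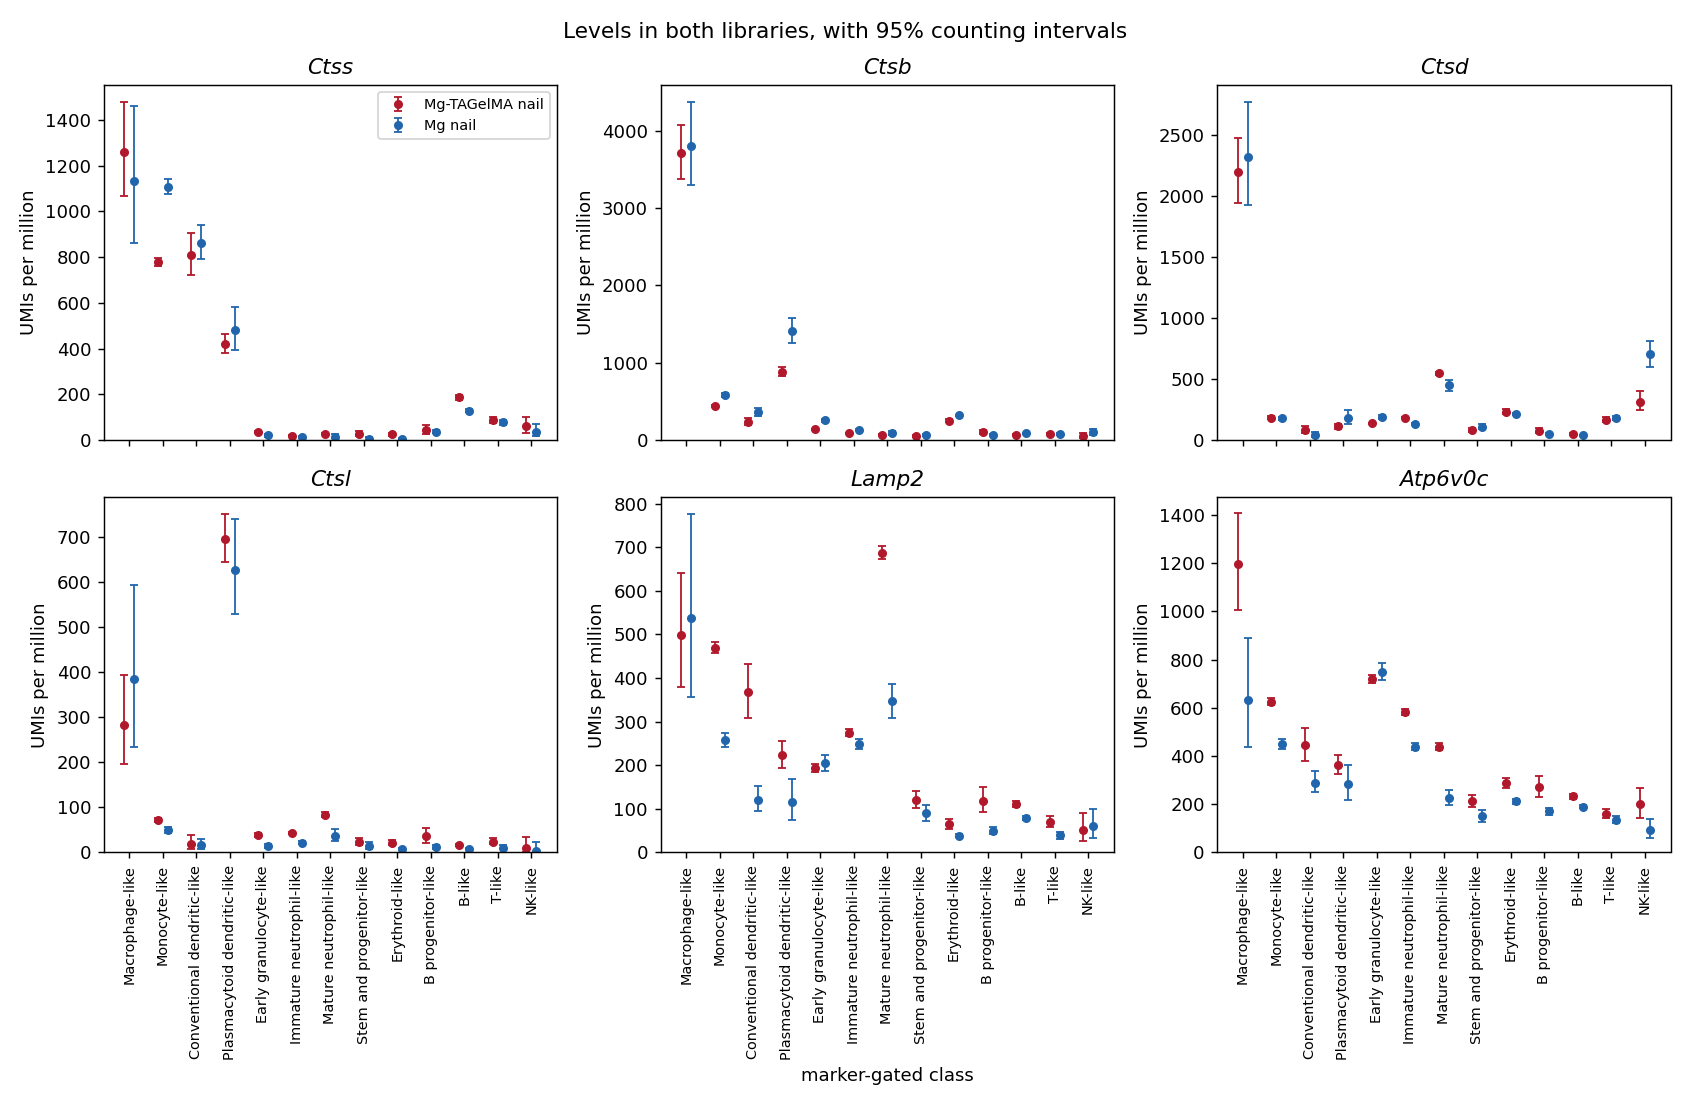
CPM of 6 genes in 13 marker-gated classes, with 95% counting intervals as bars, for the Mg-TAGelMA library (red) and the Mg library (blue). Ctss is high in the macrophage-like, monocyte-like and dendritic-like classes, Ctsb and Ctsd in the macrophage-like class, Ctsl in plasmacytoid dendritic-like cells, and Lamp2 reaches mature neutrophil-like cells.

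To set classes against each other, a gene counted as past the size rule when the exact interval of its CPM ratio lay wholly beyond 2-fold and its higher CPM was at least 50. Monocyte-like over B-like cells put 11 genes higher and 0 lower in both libraries, of 21 whose higher level was at least 50 CPM in each library. Among all 3461 such genes 13.3% were higher and 9.1% lower. The 11 were 7 cathepsins (Ctsa, Ctsb, Ctsc, Ctsd, Ctsh, Ctss and Ctsz), both Lamp genes, Atp6v0c and Atp6v1b2. Ctsb had 6.05-fold the B-like level in the Mg-TAGelMA (5.57 to 6.58) and 6.44-fold in the Mg library (6.03 to 6.88). Ctsc was 6.42-fold (Mg-TAGelMA) and 5.19-fold (Mg) higher, Lamp1 5.06-fold (Mg-TAGelMA) and 5.96-fold (Mg) and Ctss 4.17-fold (Mg-TAGelMA) and 8.61-fold (Mg). Atp6v0c, at 2.70-fold (Mg-TAGelMA) and 2.37-fold (Mg), and Atp6v1b2, at 2.50-fold (Mg-TAGelMA) and 4.10-fold (Mg), were the pump genes past the rule. With each cell thinned to 1000 UMIs, neither was past it in both libraries. Without thinning, the median log2 ratio of the measured genes was 1.21 in the Mg-TAGelMA and 1.24 in the Mg library. Over all genes at 50 CPM or more it was -0.00 (Mg-TAGelMA) and -0.15 (Mg). Ctso went the other way in the Mg-TAGelMA library, 4.47-fold lower in monocyte-like cells (3.66 to 5.49), and in the Mg library it did not reach 50 CPM.

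Other lysosomal lists were set beside them in the same contrast. The rule put 16.3% of all genes higher and 15.1% lower in the Mg-TAGelMA library, and 15.7% and 11.5% in the Mg library. Of the hydrolases and activators, 10 of 16 measured genes in the Mg-TAGelMA and 10 of 15 in the Mg library were higher and 0 lower. Psap, the saposin precursor, was higher at 7.44-fold (Mg-TAGelMA) and 8.26-fold (Mg). Of the lysosomal membrane list 1 of 7 (Mg-TAGelMA) and 3 of 6 (Mg) were higher, with Cd68, a macrophage sialomucin, at 16.4-fold (Mg-TAGelMA) and 50.6-fold (Mg). Both cystatins or stefins measured were higher in each library, the cathepsin inhibitors Cst3, at 5.79-fold (Mg-TAGelMA) and 9.36-fold (Mg), and Cstb, at 4.32-fold (Mg-TAGelMA) and 2.63-fold (Mg). Of the sorting and regulator list 3 of 10 were higher and 0 lower in the Mg-TAGelMA library, and 2 of 11 higher and 1 lower in the Mg library. Lamtor4, of the Ragulator complex, was higher in both, at 3.86-fold (Mg-TAGelMA) and 3.59-fold (Mg). Of the V-ATPase accessory and assembly list 0 of 7 were higher and 1 was lower in each library, Dmxl1, a pump assembly factor, with 54.1 CPM in monocyte-like and 625 CPM in B-like cells of the Mg-TAGelMA library and 46.7 CPM in monocyte-like and 193 CPM in B-like cells of the Mg library. Of the cathepsins outside the 10, 0 of 2 passed in the Mg-TAGelMA and 1 of 1 in the Mg library, Ctsg, a neutrophil granule protease, at 2.48-fold.

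Many lysosomal genes carry the CLEAR element, a motif with the core CACGTG that TFEB and related factors bind. Promoters, taken as 250 bases before to 50 after the start in RefSeq on GRCm38.p6, were available for 29 of the 37 genes. The core CACGTG, which reads the same on both strands, occurred in 9 of the 29 (31.0%), against 8.09% of 27025 genes. The longer GTCACGTG, searched on both strands and always overlapping a core, occurred in 5 of them (17.2%), Atp6v0b, Atp6v0d1, Ctsa, Ctsd and Lamp1, against 2.55% of all genes. No test was run on these shares, and a match is not evidence of binding. The sequences below are stretches before a RefSeq start of 4 of the 5. These are shown, as 3 were past the rule in monocyte-like over B-like cells and Atp6v0b is a pump gene with 2 cores. Each runs 5′ to 3′ on the strand of the gene up to the base before the RefSeq start, and the capitals mark each core. Where a gene has several RefSeq starts, the one shown is the first whose upstream 250 bases hold GTCACGTG on either strand. In GENCODE vM21 the Ctsa gene begins at 164832873 and Ctsd, on the minus strand, at 142388038. The Ctsa stretch and part of the Ctsd one, with its core at -98, thus lie inside the annotated gene.
Ctsd, 250 bases, chr7:142387828-142388077, minus strand: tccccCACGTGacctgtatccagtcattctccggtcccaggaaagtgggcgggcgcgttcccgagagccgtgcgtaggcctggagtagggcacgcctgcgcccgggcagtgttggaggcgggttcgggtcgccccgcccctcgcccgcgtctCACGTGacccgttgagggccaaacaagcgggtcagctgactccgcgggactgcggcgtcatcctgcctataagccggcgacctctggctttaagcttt
Lamp1, 100 bases, chr8:13159061-13159160, plus strand: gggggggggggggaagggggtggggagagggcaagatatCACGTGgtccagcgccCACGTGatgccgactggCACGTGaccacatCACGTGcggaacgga
Atp6v0b, 100 bases, chr4:117887330-117887429, minus strand: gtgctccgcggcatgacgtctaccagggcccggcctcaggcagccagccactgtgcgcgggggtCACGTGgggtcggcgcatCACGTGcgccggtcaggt
Ctsa, 100 bases, chr2:164833673-164833772, plus strand: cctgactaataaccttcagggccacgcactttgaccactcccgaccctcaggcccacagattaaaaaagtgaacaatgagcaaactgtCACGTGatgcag
Counted from the RefSeq start shown, the first base of each core lay at -61, -45, -28 and -15 in Lamp1, at -245 and -98 in Ctsd, at -36 and -18 in Atp6v0b and at -12 in Ctsa.

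Mature neutrophil-like over monocyte-like cells put 1 gene higher and 7 lower in both libraries, of 22, where 10.5% of all 3284 genes were higher and 26.9% lower. Ctss had 302 UMIs in Mg-TAGelMA and 13 in Mg mature neutrophil-like cells, against 7798 (Mg-TAGelMA) and 4419 (Mg) in monocyte-like cells. This was 27.3-fold lower in the Mg-TAGelMA (24.3 to 30.7) and 75.1-fold lower in the Mg library (43.9 to 141). Ctsc was 21.7-fold (Mg-TAGelMA) and 18.6-fold (Mg) lower, and Ctsa, Ctsb, Ctsh, Ctsz and Lamp1 were between 4.70-fold lower for Ctsh in the Mg-TAGelMA library and 23.4-fold lower for Ctsa in the Mg library. The gene higher in both was Ctsd, 2.95-fold in the Mg-TAGelMA (2.80 to 3.11) and 2.50-fold in the Mg library (2.21 to 2.83). No pump gene passed in both libraries. The median log2 ratio was -0.42 in the Mg-TAGelMA and -0.52 in the Mg library for the measured genes, against -0.78 (Mg-TAGelMA) and -0.44 (Mg) over all genes, so most transcripts took a smaller share of the RNA of mature neutrophil-like cells.

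For the lists around them in the same contrast the background was 12.8% of all genes higher and 40.9% lower in the Mg-TAGelMA library, and 15.3% and 28.5% in the Mg library. Of the hydrolases and activators 1 of 17 was higher and 12 lower in the Mg-TAGelMA library and 0 of 16 higher and 11 lower in the Mg library. Lgmn, the asparaginyl endopeptidase legumain, was 20.8-fold lower in the Mg-TAGelMA library. In the Mg library it had 0 UMIs in mature neutrophil-like and 302 in monocyte-like cells. Of the membrane list 2 of 8 were higher and 5 lower with Mg-TAGelMA, and 1 of 8 higher and 3 lower with Mg, with Cd63, a granule and lysosome tetraspanin, 5.26-fold (Mg-TAGelMA) and 7.88-fold (Mg) higher and Cd68 5.63-fold (Mg-TAGelMA) and 19.2-fold (Mg) lower. Cystatins and stefins split, 2 of 4 higher and 1 lower in the Mg-TAGelMA and 2 of 4 higher and 2 lower in the Mg library. Stfa2l1, a stefin A gene of a cluster of near-identical copies whose reads may be shared, had 684 CPM in mature neutrophil-like and 8.79 CPM in monocyte-like cells with the Mg-TAGelMA nail, and 263 CPM in mature neutrophil-like and 0.251 CPM, or 1 UMI, in monocyte-like cells with the Mg nail. Cst3 was 3.10-fold (Mg-TAGelMA) and 12.9-fold (Mg) lower. Of the sorting list 0 of 8 were higher and 3 lower with Mg-TAGelMA, and 0 of 10 higher and 4 lower with Mg. Of the assembly list 1 of 8 (Mg-TAGelMA) and 2 of 8 (Mg) were higher and 3 lower in each library, with Dmxl2, a pump assembly factor, 6.53-fold (Mg-TAGelMA) and 15.9-fold (Mg) higher. Of the cathepsins outside the 10 none passed, of 2 measured with Mg-TAGelMA and 1 with Mg.

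Along the neutrophil stages the Lamp and pump genes did not follow one direction. From early granulocyte-like through immature to mature neutrophil-like cells, 8 of the 29 genes with at least 100 UMIs had a higher CPM at each later stage in both libraries, whatever their intervals, namely Lamp2, Ctsl, Atp6ap1, Atp6v0a1, Atp6v0d1, Atp6v1d, Atp6v1g1 and Atp6v1h. Another 6 had a lower CPM at each later stage in both, namely Lamp1, Ctsb, Ctsf, Ctso, Atp6v0c and Atp6v1c1. Ctsf did so at low levels, 1.34, 0.419 and 0.189 CPM with Mg-TAGelMA and 0.433, 0.238 and 0 CPM with Mg. Of all 13464 genes with at least 100 UMIs, 11.2% had a higher and 31.7% a lower CPM at each later stage in both libraries. No test was run on these shares. Lamp2 had 193, 274 and 688 CPM in the 3 stages of the Mg-TAGelMA library and 205, 248 and 346 CPM in those of the Mg library. Lamp1 had 242, 142 and 83.1 CPM in the Mg-TAGelMA stages and 257, 164 and 95.4 CPM in the Mg stages. The ratio of Lamp2 to Lamp1 UMIs, which does not depend on the total, was 0.798, 1.93 and 8.27 in the Mg-TAGelMA and 0.796, 1.52 and 3.63 in the Mg library. The early values agree within counting error between the libraries, and the mature ones, with intervals of 7.71 to 8.88 (Mg-TAGelMA) and 2.84 to 4.68 (Mg), do not. Outside these stages the ratio was also higher with Mg-TAGelMA in monocyte-like (0.848 against 0.408) and T-like cells (0.993 against 0.392). It was not in macrophage-like (0.455 against 0.5) and NK-like cells (0.611 against 0.714). Lamp2 has 45.5 kb of annotated intron and Lamp1 13.5 kb, and the part of this was not tested. In mature neutrophil-like cells the immature neutrophil markers summed to 15384 CPM in the Mg-TAGelMA and 23632 CPM in the Mg library, and the mature markers to 35784 CPM (Mg-TAGelMA) and 30735 CPM (Mg). Their part in the result was not tested.

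A pair of V-ATPase genes also had opposite orders. Atp6v1g1 had 179, 226 and 517 CPM in the Mg-TAGelMA stages and 132, 179 and 358 CPM in the Mg stages. Atp6v0c had 719.8, 584 and 439.7 CPM (Mg-TAGelMA) and 751, 439.6 and 226 CPM (Mg). The ratio of Atp6v1g1 to Atp6v1f, both V1 genes with short introns, was 0.959, 1.59 and 3.35 in the Mg-TAGelMA and 0.762, 1.45 and 3.15 in the Mg library. For Ctsd to Ctsb the ratios were 0.982, 1.98 and 7.82 (Mg-TAGelMA) and 0.740, 1.03 and 4.95 (Mg). Each of these ratios was higher at each later stage in both libraries, with mature intervals clear of the early ones.

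**Figure D3:**
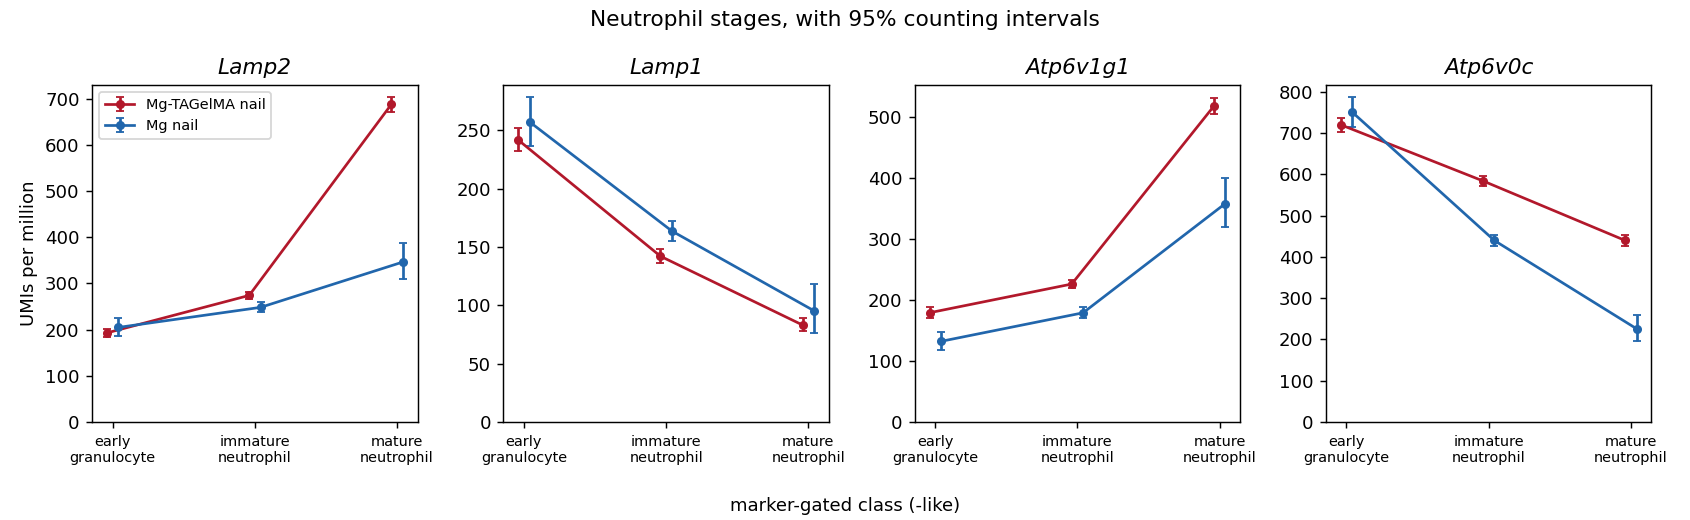
CPM of Lamp2, Lamp1, Atp6v1g1 and Atp6v0c in early granulocyte-like, immature neutrophil-like and mature neutrophil-like cells, with 95% counting intervals as bars, for the Mg-TAGelMA library (red) and the Mg library (blue). Lines join the stages of 1 library. Lamp2 and Atp6v1g1 are higher, and Lamp1 and Atp6v0c lower, at each later stage in both libraries.

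Set directly, mature neutrophil-like over early granulocyte-like cells had 3 genes higher (Ctsd, Atp6v1g1 and Atp6v0a1) and 2 lower (Ctsz and Lamp1) past the rule in both libraries, of 19, where 18.2% of 3089 genes were higher and 27.5% lower. Both shares of the measured genes lay below these. Ctsd was 3.99-fold higher in the Mg-TAGelMA (3.76 to 4.24) and 2.38-fold in the Mg library (2.07 to 2.73). Atp6v1g1 was 2.89-fold (Mg-TAGelMA) and 2.71-fold (Mg) higher, and Atp6v0a1 3.08-fold (Mg-TAGelMA) and 14.3-fold (Mg), the last from 20 UMIs in Mg early granulocyte-like cells. Lamp1 was 2.91-fold (Mg-TAGelMA) and 2.70-fold (Mg) lower and Ctsz 3.54-fold (Mg-TAGelMA) and 3.81-fold (Mg) lower. Lamp2 passed in the Mg-TAGelMA library alone, at 3.56-fold, and had 1.69-fold in the Mg library. The median log2 ratio of the measured genes was 0.47 in the Mg-TAGelMA and -0.01 in the Mg library, against -0.47 (Mg-TAGelMA) and -0.19 (Mg) over all genes. With each cell thinned to 1000 UMIs, 1 gene, Atp6v0a1, was past the rule in both libraries. The mature class held 1929 Mg-TAGelMA and 377 Mg cells with medians of 5203 (Mg-TAGelMA) and 1906 (Mg) UMIs.

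The same stage contrast had 23.7% of all genes higher and 39.7% lower in the Mg-TAGelMA library, and 21.4% and 27.6% in the Mg library. Hydrolases and activators had 1 of 13 higher and 4 lower with Mg-TAGelMA, and 1 of 11 higher and 4 lower with Mg, with Arsb, a sulfatase, 5.48-fold (Mg-TAGelMA) and 8.01-fold (Mg) lower. The membrane list had 1 of 4 higher and 1 lower with Mg-TAGelMA, and 1 of 5 higher and 2 lower with Mg. Tcirg1, 4.09-fold lower with Mg, is on both the membrane and the assembly list and counts in each. Slc11a1, the phagosomal metal transporter, was 31.2-fold higher in the Mg-TAGelMA library and 65.5-fold (17.2 to 556) in the Mg library, where early cells held 2 UMIs, and Cd63 was 2.57-fold (Mg-TAGelMA) and 6.26-fold (Mg) lower. Cystatins and stefins had 2 of 5 higher and 1 lower with Mg-TAGelMA, and 2 of 4 higher and 2 lower with Mg, with Cst7, cystatin F, 35.7-fold (Mg-TAGelMA) and 39.1-fold (Mg) lower. The sorting list had 0 of 7 higher and 4 lower with Mg-TAGelMA, and 1 of 9 higher and 3 lower with Mg, with Lamtor2 5.01-fold (Mg-TAGelMA) and 5.97-fold (Mg) lower. The assembly list had 2 of 6 higher and 2 lower with Mg-TAGelMA, and 1 of 7 higher and 3 lower with Mg. Vma21, an assembly chaperone of the V0 sector, was 9.68-fold (Mg-TAGelMA) and 10.4-fold (Mg) lower, and Dmxl2 10.1-fold (Mg-TAGelMA) and 8.70-fold (Mg) higher. Ctsg, of the cathepsins outside the 10, was 47.6-fold (Mg-TAGelMA) and 32.3-fold (Mg) lower.

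Between the dendritic-like classes, Ctsl, a cysteine protease, was the gene that stood furthest apart. It had 669 UMIs in 81 Mg-TAGelMA and 142 in 27 Mg plasmacytoid dendritic-like cells, against 7 in 29 Mg-TAGelMA and 10 in 53 Mg conventional dendritic-like cells. In CPM these were 697 (Mg-TAGelMA) and 628 (Mg), against 18.4 (Mg-TAGelMA) and 16.3 (Mg), or 37.9-fold higher in the Mg-TAGelMA (18.3 to 94.7) and 38.5-fold in the Mg library (20.3 to 82.1). Thinned to 1000 UMIs per cell, Ctsl was seen in 43 of 80 cells with Mg-TAGelMA (42.2% to 65%) and 10 of 27 cells with Mg (19.4% to 57.6%) in the plasmacytoid class. In the conventional class it was seen in 0 of 29 cells with Mg-TAGelMA and 0 of 53 cells with Mg. The exact upper bounds of 11.9% (Mg-TAGelMA) and 6.72% (Mg) limit cells with a UMI at 1000 UMIs per cell, not cells that hold the transcript. Without thinning the shares were 96.3% (Mg-TAGelMA) and 81.5% (Mg) in the plasmacytoid and 20.7% (Mg-TAGelMA) and 15.1% (Mg) in the conventional class. Ctsb was 3.74-fold (Mg-TAGelMA) and 3.86-fold (Mg) higher in the plasmacytoid class. These 2 genes were past the rule in both libraries, of 23, with 0 lower, where 4.55% of 3210 genes were higher and 3.89% lower. Ctss was instead lower in the plasmacytoid class, inside the 2-fold bound, with 419.6 (Mg-TAGelMA) and 482 (Mg) CPM there and 811 (Mg-TAGelMA) and 862 (Mg) CPM in the conventional class. Its ratio to Ctsb UMIs was 0.475 (Mg-TAGelMA) and 0.342 (Mg) in plasmacytoid and 3.43 (Mg-TAGelMA) and 2.36 (Mg) in conventional dendritic-like cells. The ratio of Ctsl to Ctss was 1.66 (Mg-TAGelMA) and 1.30 (Mg), against 0.0227 (Mg-TAGelMA) and 0.0189 (Mg). Median log2 ratios of the measured genes were -0.10 in the Mg-TAGelMA and 0.04 in the Mg library, against 0.16 (Mg-TAGelMA) and 0.31 (Mg) over all genes. In the conventional class the monocyte markers summed to 2164 (Mg-TAGelMA) and 2393 (Mg) CPM. Its own markers summed to 1390 (Mg-TAGelMA) and 1705 (Mg) CPM. The gate treats both lists as the same lineage, and the part of monocyte-like cells in these values was not tested.

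Of all genes in this contrast 9.84% were higher and 8.12% lower in the Mg-TAGelMA library, and 6.13% and 4.27% in the Mg library. Among the hydrolases and activators 1 of 18 was higher in each library, Grn, the progranulin gene, at 4.56-fold (Mg-TAGelMA) and 4.26-fold (Mg), and 3 (Mg-TAGelMA) and 1 (Mg) were lower, with Gm2a, the ganglioside activator, 3.71-fold (Mg-TAGelMA) and 5.33-fold (Mg) lower. On the membrane list 1 of 8 (Mg-TAGelMA) and 1 of 7 (Mg) were higher and 0 lower, Npc1, a cholesterol exporter, at 13.7-fold (Mg-TAGelMA) and 5.31-fold (Mg). Among cystatins and stefins 0 of 2 were higher and 1 lower, Cst3, with 661 CPM in plasmacytoid and 2778 CPM in conventional dendritic-like cells of the Mg-TAGelMA library and 734 CPM in plasmacytoid and 5269.6 CPM in conventional dendritic-like cells of the Mg library. On the sorting list 0 of 8 passed in the Mg-TAGelMA and 1 of 9, Sort1, in the Mg library. On the assembly list 1 of 7, Dmxl1, was higher with Mg-TAGelMA and 0 of 6 with Mg, and among the cathepsins outside the 10 the endosomal protease Ctse was higher in the Mg-TAGelMA library, at 6.75-fold, with none measured at 50 CPM in the Mg library.

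Between the nails, 7 classes held at least 100 cells in each library. Over them 144 comparisons of a gene in a class gave 12 calls higher and 0 lower with the Mg-TAGelMA nail, from 5 genes, Atp6v0a1, Atp6v0d1, Atp6v1h, Atp6ap2 and Ctsc. In B-like cells 4 of 25 genes were higher, where 20.9% of all genes were higher and 3.08% lower. Atp6v0a1 had 1196 UMIs (133 CPM) in Mg-TAGelMA and 232 (14.3 CPM) in Mg B-like cells, 9.33-fold higher (8.10 to 10.8). Atp6v0d1, the V0 subunit that links the ring to the stalk, had 213 CPM in Mg-TAGelMA and 46.9 CPM in Mg B-like cells, 4.54-fold higher (4.17 to 4.95). Atp6v1h, the V1 subunit that regulates coupling, was 3.40-fold higher (3.11 to 3.73) and Atp6ap2 2.67-fold (2.45 to 2.91). In T-like cells 2 of 18 were higher, where 20.4% of all genes were higher and 1.62% lower. These were Atp6v0d1 at 6.71-fold (5.15 to 8.84) and Atp6v1h at 3.0-fold (2.40 to 3.77). In monocyte-like cells 3 of 25 were higher, where 15.1% of all genes were higher and 1.57% lower. These were Atp6v0a1 at 4.36-fold (3.56 to 5.40), Atp6v1h at 2.50-fold and Atp6v0d1 at 2.41-fold.

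In erythroid-like cells 1 of 16 was higher, where 14% of all genes were higher and 1.15% lower. This was Atp6v0a1, with 139 CPM in the Mg-TAGelMA and 52.3 CPM in the Mg library, 2.66-fold (2.31 to 3.06). Under TMM scaling, which moved the median of all genes there by -0.47 on the log2 scale, its log2 ratio was 0.94 and no longer past the rule. In mature neutrophil-like cells 1 of 21 was higher, where 11.8% of all genes were higher and 8.79% lower. This was Atp6v0d1, with 392 CPM in the Mg-TAGelMA and 114 CPM in the Mg library, 3.45-fold (2.83 to 4.26). TMM scaling moved the median of all genes in that class by 0.33 and made 5 genes higher, adding Atp6v1h, Ctsl, Atp6v0c and Lamp2 at 3.40-fold, 2.88-fold, 2.45-fold and 2.50-fold. In early granulocyte-like cells 1 of 21 was higher, where 9.7% of all genes were higher and 3.57% lower. This was Ctsc, with 724 UMIs (74.5 CPM) in 308 Mg-TAGelMA and 41 UMIs (17.8 CPM) in 145 Mg cells, 4.19-fold (3.06 to 5.89). In that class the immature neutrophil markers summed to 15295 CPM in the Mg-TAGelMA and 32083 CPM in the Mg library, the stem and progenitor markers to 176 CPM (Mg-TAGelMA) and 94.8 CPM (Mg), and the early granulocyte markers to 20643 CPM (Mg-TAGelMA) and 23947 CPM (Mg). Their part in the result was not tested. In immature neutrophil-like cells 0 of 18 passed, where 9.05% of all genes were higher and 4.64% lower. In each of the 7 classes the share of measured genes called higher was below that of all genes.

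Gm42418 and AY036118, transcripts that overlap the ribosomal RNA locus, took 0.120% of all UMIs in the Mg-TAGelMA and 7.07% in the Mg library, and 0.126% (Mg-TAGelMA) and 16.2% (Mg) in mature neutrophil-like cells. With both left out of the totals, which moved the median of all genes by -0.25 in mature neutrophil-like cells, Atp6v0a1 remained past the rule in monocyte-like cells at 4.01-fold. Atp6v1h and Atp6v0d1 did not, at log2 ratios of 1.20 and 1.15. Summed over all cells 6 of 24 genes were higher with the Mg-TAGelMA nail and 0 lower, where 18.8% of all genes were higher and 7.63% lower. The 6 were Atp6v0d1, Atp6v0a1, Ctsl, Atp6v1h, Lamp2 and Ctsc, at 3.35-fold to 2.09-fold. That sum also carries the shares of the classes, with mature neutrophil-like cells making up 26.7% of Mg-TAGelMA and 4.6% of Mg cells and B-like cells 20.9% of Mg-TAGelMA and 40.8% of Mg cells.

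The libraries were counted with different Cell Ranger releases, 7.0.1 for Mg-TAGelMA and 5.0.0 for Mg. Whether reads in introns were counted in either library is not given in the sources used here, and the release cannot be told apart from the nail. The 5 genes called in a class have 26.6 to 82.8 kb of annotated intron. Of the 37 genes 12 have at most 8 kb, and 7 of these were measured in at least 1 class, with none called. Of these, Ctsl and Atp6v0c were past the rule in mature neutrophil-like cells under TMM scaling, and Ctsl was past it over all cells. Across the measured genes the Spearman correlation between intron length and log2 ratio was 0.72 in B-like cells (25 genes), 0.59 in erythroid-like (16), 0.58 in monocyte-like (25), 0.36 in T-like (18), 0.27 in mature neutrophil-like (21), 0.22 in immature neutrophil-like (18) and 0.03 in early granulocyte-like cells (21). These describe genes of 1 pair of libraries. A split by intron length was also present outside the 37 genes. Over all measured genes in B-like cells, the median log2 ratio was -0.44 for short introns (up to 8 kb) and 0.28 for longer ones. The T-like medians were -0.24 (short) and 0.44 (longer), and the monocyte-like ones -0.14 (short) and 0.26 (longer). The short-intron median was lower in each class except early granulocyte-like cells, at 0.17 (short) and 0.16 (longer). Among genes with short introns, Atp6v0c had 1.22-fold the Mg level in B-like, 1.39-fold in monocyte-like and 1.95-fold in mature neutrophil-like cells (1.69 to 2.25). Atp6ap1 was lower in the Mg-TAGelMA library in all 7 classes, with ratios of 0.626 to 0.964, none past the rule, and Ctsb, with 17.4 kb of intron, likewise at 0.548 to 0.937. Ctss had 779 CPM in Mg-TAGelMA and 1108 CPM in Mg monocyte-like cells, a ratio of 0.703 (0.677 to 0.729) inside the 2-fold bound.

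**Figure D4:**
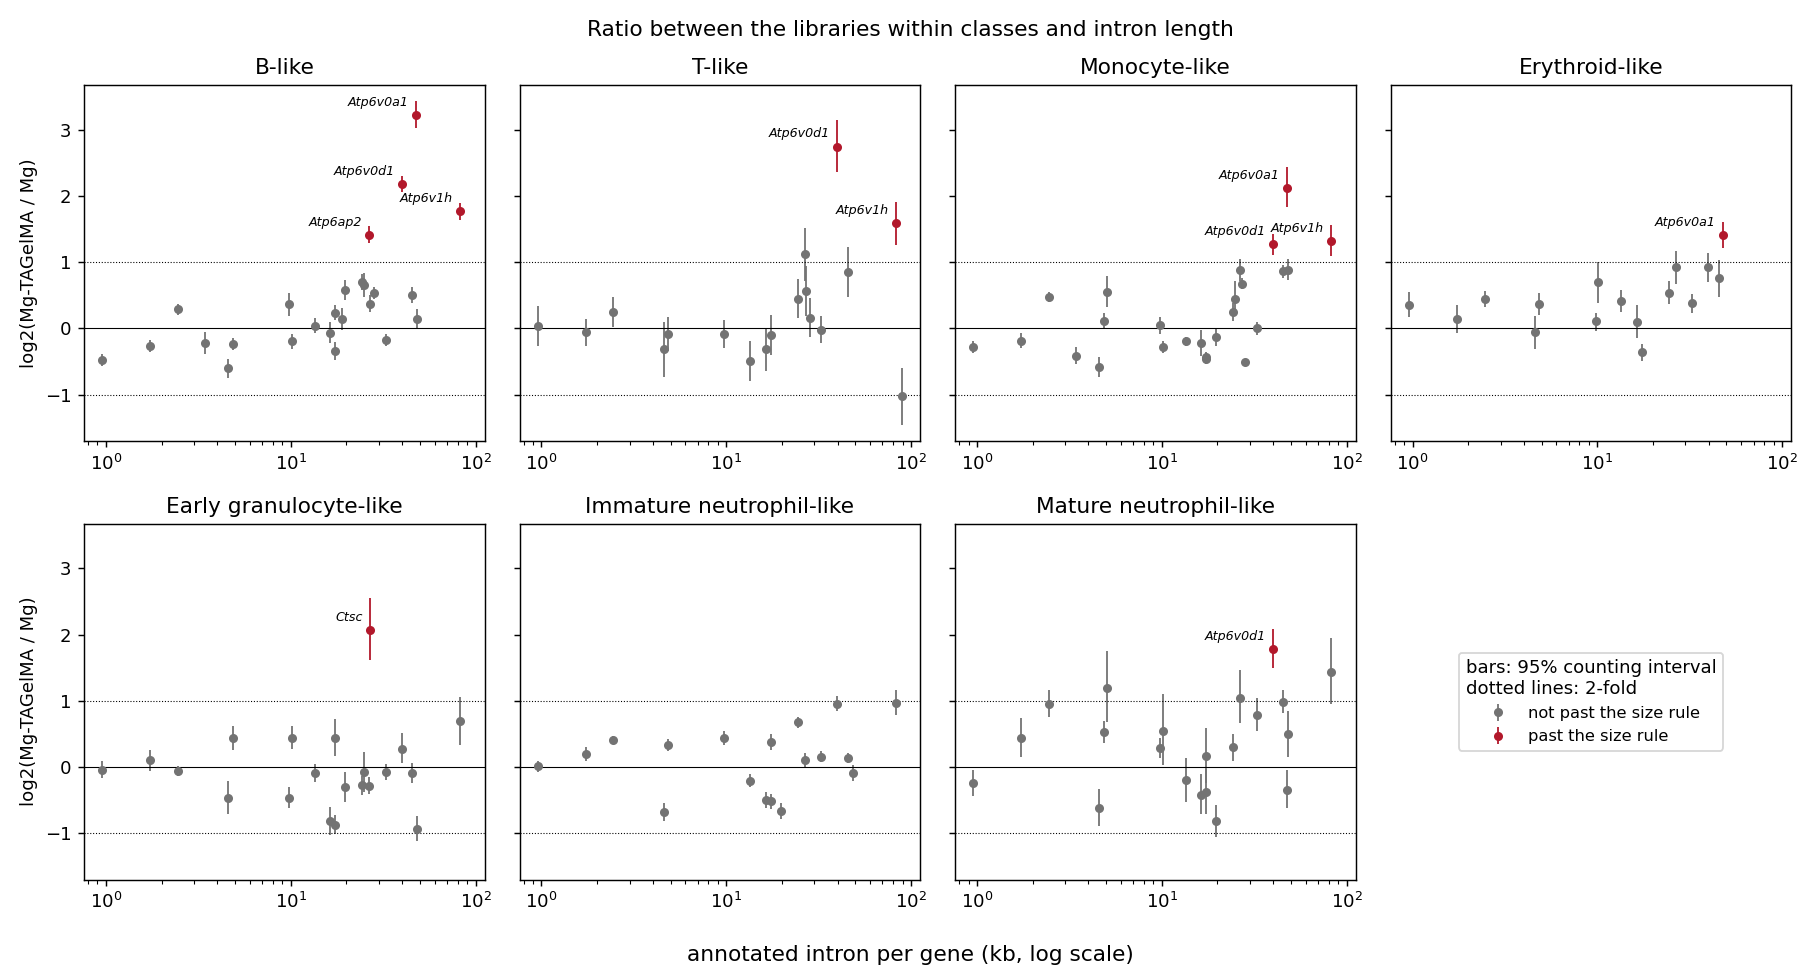
Log2 ratio of Mg-TAGelMA over Mg CPM against annotated intron length in kb (log scale) for the measured genes in 7 classes, with 95% counting intervals as bars and dotted lines at 2-fold. Red points are the 12 calls past the size rule. In B-like and monocyte-like cells the ratios are higher among genes with long introns, and in early granulocyte-like cells they are not.

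The lists around these genes were compared between the nails within each class. They hold few measured genes, and the shares of all genes higher or lower in each class, given above, are the background of each count. Of the hydrolases and activators 1 of 10 was higher in the Mg-TAGelMA library in immature neutrophil-like (all genes 9.05%), 1 of 11 in mature neutrophil-like (11.8%), 1 of 16 in monocyte-like (15.1%) and 2 of 11 in B-like cells (20.9%), Lgmn among the last, with 0 lower in these classes. T-like cells had Arsb higher (1 of 5, all genes 20.4%) and erythroid-like cells 0 of 2 (14%). Of 13 in early granulocyte-like cells 1 was higher, Gm2a, and 2 were lower, Neu1 among them, where 9.7% of all genes were higher and 3.57% lower. On the membrane list Tmem192 was higher in B-like cells (1 of 5) and Cd63 lower in early granulocyte-like cells (1 of 4), at 538 CPM in the Mg-TAGelMA and 1187 CPM in the Mg library, with 0 calls in the other 5 classes.

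Cystatins and stefins were past the rule only in immature neutrophil-like cells (1 of 2, Stfa2l1) and mature neutrophil-like cells, where 4 of 5 were higher and 1 lower. There Stfa1 was 3.23-fold and Cstb 3.17-fold higher and Stfa3 2.99-fold lower, and the stefin A genes may share reads. The sorting list had Mitf higher in monocyte-like cells (1 of 10), Gnptab higher in T-like cells (1 of 7) and Gga2 lower in B-like cells (1 of 9). The assembly list had Wdr7, with 271 kb of intron, higher in mature neutrophil-like (1 of 4, with Rogdi lower), monocyte-like (1 of 8), B-like (2 of 4, with Dmxl1) and erythroid-like cells (1 of 4), at 4.17-fold to 8.10-fold. Oxr1 was higher in T-like (1 of 3) and Rogdi lower in early granulocyte-like cells (1 of 6). Of the cathepsins outside the 10, Ctse was higher in monocyte-like (1 of 2), B-like (1 of 1) and T-like cells (1 of 2), at 3.98-fold, 5.49-fold and 5.94-fold.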

How the data were processed

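Single-cell libraries were made with 10x Chromium 3' chemistry version 3, per the labels. The deposited values are raw UMI counts per gene and barcode, written by Cell Ranger 7.0.1 for the Mg-TAGelMA and 5.0.0 for the Mg library per the file headers; STAR and mm10 stand in the submitters' processing notes, and whether introns were counted is not given in the sources used here. The 37 genes and all lists were chosen with earlier results of these data known.

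Barcodes under 200 detected genes or over 15% mitochondrial UMIs were left out, and doublets called by scrublet in scanpy 1.11.5 were removed, 297 (3.95%) in the Mg-TAGelMA and 197 (2.37%) in the Mg library. Free RNA was not subtracted. A cell joined a class when at least 2 markers and 3 UMIs of its list were detected and their share passed 10% of the 90th percentile of cells with at least 3 of the markers, and when no list of another lineage scored above 50% of it; 755 Mg-TAGelMA and 936 Mg cells met no gate, and 116 Mg-TAGelMA and 379 Mg gated cells lay near a threshold, which was set after the values were seen. UMIs were summed per library and class and divided by all UMIs of that class. Ratios have exact conditional (Clopper-Pearson) 95% intervals and levels exact Poisson ones, both of counting error only; a count of 0 was set to 3 in a ratio. The size rule asked for a ratio whose whole interval lay beyond 2-fold and for 50 CPM or more in the higher group; no p-value was computed, since each group has 1 library. Classes needed 100 cells per library for the comparison of nails and 20 for levels. Named genes were members past the rule, those with the most UMIs in each group, those under 10 UMIs, and up to 2 of each other list with the largest ratio past the rule; the remaining members named were chosen after their values were seen. Intron lengths are from GENCODE vM21, which matched 32158 (99.6%) of the listed genes, and promoters from RefSeq.

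The lists outside the 37 genes were hydrolases and activators (33 genes), lysosomal membrane (15), cystatins and stefins (8 in the files), sorting and regulators (21), V-ATPase accessory and assembly (11 in the files) and cathepsins outside the 10 (4). Tcirg1 is on both the membrane and the assembly list, so these are not wholly separate. Alternatives were TMM (edgeR 4.0.16) and median-ratio factors (DESeq2 1.42.0, in R 4.3.3), other totals, other minima and folds, doublets kept, 500 detected genes and thinning to 1000 UMIs per cell. Python 3.11.15 with numpy 2.4.6, scipy 1.17.1 and pandas 2.3.3 was used, and the scripts were tested on simulated counts. Some genes of the hydrolase list entered its counts and are not reported here by name.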

Additional observations from a re-analysis of the deposited data

How the results depend on the processing

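No paired analysis was possible because each group has 1 library. The 14 counts that answer a comparison were recomputed under alternatives, though not every count under every one. This gave 92 values within 1.5 times the count reported, 47 outside it and 0 reversed. The 12 single-gene calls between the nails were recomputed only under TMM, median-ratio factors and the total without Gm42418 and AY036118. Genes that lost the rule under other alternatives, such as thinning, are not among these values. Of them, 32 kept their side of the rule, 4 lost it and 0 reversed. Those 4 were Atp6v1h and Atp6v0d1 in monocyte-like cells (1.20 and 1.15, log2) without Gm42418 and AY036118, and Atp6v0a1 in erythroid-like cells (0.94, log2) under TMM and under median-ratio factors.

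Between the nails, scaling to the total of genes with at most 8 kb of intron gave 3 genes in early granulocyte-like, 2 in mature neutrophil-like, 6 in monocyte-like and 2 in erythroid-like cells, all higher. Counting only genes with at most 8 kb of intron, chosen after seeing the data, gave 1 over all cells in place of 6 and 0 in early granulocyte-like, mature neutrophil-like, monocyte-like, B-like, T-like and erythroid-like cells. With both changes together, also chosen afterwards, the counts were 1 over all cells and 0 in the last 5 of these classes. Both ways of counting test fewer genes. TMM and median-ratio factors each gave 5 in mature neutrophil-like and 0 in erythroid-like cells, and the total without Gm42418 and AY036118 gave 1 in monocyte-like cells. With a minimum of 10 CPM the counts were 2 in early granulocyte-like, 1 in immature neutrophil-like and 3 in erythroid-like cells; with no minimum they were 2, 1 and 3 there and 5 in mature neutrophil-like cells (1 higher, 4 lower). With a 1.5-fold bound they were 4 in early granulocyte-like (1 higher, 3 lower), 3 in immature and 6 in mature neutrophil-like, 7 in monocyte-like, 4 in T-like (3 higher, 1 lower) and 3 in erythroid-like cells. Keeping doublets, or asking for 500 detected genes, gave 2 in mature neutrophil-like cells. Thinning to 1000 UMIs per cell, which leaves fewer UMIs, gave 0 in early granulocyte-like, 2 in mature neutrophil-like, 1 in monocyte-like and 1 in T-like cells. Shares of all genes past the rule under these alternatives are not given here, so these counts have no background. The causes of these moves were not tested.

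Between classes, the Mg count of 17 genes highest in phagocyte-like classes was 9 with 500 detected genes, 10 after thinning and 9 without macrophage-like cells, an alternative chosen after seeing the data, and the Mg-TAGelMA count of 18 ran from 13 to 20. The alternatives for class contrasts were also chosen after seeing the data. Shares of all genes under the alternatives are not given here for any of these counts. Mature neutrophil-like over early granulocyte-like cells had 1 gene after thinning and 8 with a 1.5-fold bound (3 higher, 5 lower), in place of 5. Plasmacytoid over conventional dendritic-like cells had 1 after thinning in place of 2. Monocyte-like over B-like cells had 10 to 13 in place of 11, with 1 lower, Ctso, when the gate was at 2 times the marker share and 0 lower otherwise. The 10 after thinning were 9 of the 11 and Ctsl, without the pump genes Atp6v0c and Atp6v1b2. Mature neutrophil-like over monocyte-like cells had the same 8 genes (1 higher, 7 lower) under each alternative. Depth limits the classes with few cells: 24 Mg macrophage-like cells held 52063 UMIs, so that 3 UMIs make 57.6 CPM there.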

Other observations

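Basophil and mast-like cells, 36 in the Mg-TAGelMA and 13 in the Mg library, held Ctsc at 461 CPM in the Mg-TAGelMA and 69.2 CPM in the Mg library, Ctsd at 313 (Mg-TAGelMA) and 404 (Mg) CPM and Atp6ap2 at 343 (Mg-TAGelMA) and 162 (Mg) CPM. Plasma cell-like cells, 38 in the Mg-TAGelMA and 11 in the Mg library, held Ctss at 138 (Mg-TAGelMA) and 364 (Mg) CPM and Atp6v0a1 at 124 (Mg-TAGelMA) and 33.1 (Mg) CPM. Both classes fell under 20 cells in the Mg library and entered no comparison.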
